A study of Mus musculus with 9 samples.

Results

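The 34 genes described here make cholesterol and fatty acids or control how much of them a cell makes. They were taken by name from the 24186 genes of a read count table, and each name matched 1 gene identifier. They fall into 17 enzymes of sterol synthesis, 5 genes of sterol sensing, 8 enzymes of fatty acid synthesis and 4 genes of the liver X receptor (LXR) and of sterol export. Of the 34 genes, 33 passed the filter on low counts, which 15098 genes of the table passed. The exception was the sterol exporter Abcg1, which had 35 counts over all 9 libraries and was not tested.

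RNA with poly(A) tails was sequenced from stromal cells of the bone marrow of adult C57Bl/6 mice. All cells, controls included, carried the irtTA-GBD*-TAg transgene, which makes large T antigen when dexamethasone and doxycycline are given together. For 3 days ahead of RNA extraction the cells were grown with neither drug. The cultures had been conditionally immortalised and cloned, and 3 groups of 3 libraries were made, named here by the numbers 4, 5 and 6 of their labels. Untreated progenitors with adipogenic potential formed one group, the same kind of progenitor exposed for 3 days to interferon-γ (IFNγ) at 10 ng/ml formed another, and untreated progenitors with osteogenic potential formed the last. The series describes them as biological replicates. The sources used here do not say if each replicate is its own clone, culture or animal. A p value therefore measures the spread among these samples, which may be technical.

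Cholesterol is built from acetyl-CoA through mevalonate, farnesyl pyrophosphate, squalene and lanosterol. When sterols are scarce, Scap carries the SREBP proteins, encoded by Srebf1 and Srebf2, from the endoplasmic reticulum to the Golgi, where they are cut and freed to switch on the synthesis enzymes, while Insig1 holds Scap back when sterols are plentiful. LXR proteins, encoded by Nr1h2 and Nr1h3, bind oxysterols and switch on sterol export through Abca1 and Abcg1, and also Srebf1 itself. In cells that turn into fat cells, fatty acid synthesis is a hallmark of maturation.

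NF-Y, a factor that binds CCAAT, works beside SREBP on many of these promoters. Promoter sequences from RefSeq, on build GRCm38.p6, matched 26 of the 34 genes with 33 promoters. In these windows around the gene starts, CCAAT was found on either strand in 19 of 33 promoters (57.6%), against 37.4% of all 32851 promoters of that table. The sterol regulatory element TCACNCCAC was found in 0 of the 33, against 1.24% of all promoters. With 1 mismatch allowed, a search added after the exact one, it was found in 11 of the 33 (33.3%), against 24.2% of all. Of the motifs that bind interferon-activated factors, TTCNNNGAA was found in 1 of the 33 (3.03%), against 8.30% of all, and GAAANNGAA also in 1 (3.03%), against 8.56%. Both of the latter matches lay in the promoter of Ebp. Such a match is a run of letters and no measured binding. Sc5d, lower in osteogenic progenitors, held 1 CCAAT at −24 from its start but is not shown, since that start matched no GENCODE transcript. The sequences below are the 250 bases before the start of 3 other genes that were lower there, chosen after their values were seen. Scd2, also lower there, had no promoter among those matched. Each CCAAT is in capitals, or ATTGG where it lies on the opposite strand.
Mvd, chr8:122443423-122443672, minus strand: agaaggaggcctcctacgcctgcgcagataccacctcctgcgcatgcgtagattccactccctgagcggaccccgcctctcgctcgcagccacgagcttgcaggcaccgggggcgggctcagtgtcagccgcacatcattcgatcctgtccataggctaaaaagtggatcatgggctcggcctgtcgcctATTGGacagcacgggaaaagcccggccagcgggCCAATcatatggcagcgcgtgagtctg
Sc4mol, chr8:64733579-64733828, minus strand: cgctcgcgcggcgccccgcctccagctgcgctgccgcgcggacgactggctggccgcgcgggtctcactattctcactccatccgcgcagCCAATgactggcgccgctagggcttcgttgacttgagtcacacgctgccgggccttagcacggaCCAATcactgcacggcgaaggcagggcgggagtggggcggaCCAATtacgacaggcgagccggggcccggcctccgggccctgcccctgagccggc
Insig1, chr5:28071162-28071411, plus strand: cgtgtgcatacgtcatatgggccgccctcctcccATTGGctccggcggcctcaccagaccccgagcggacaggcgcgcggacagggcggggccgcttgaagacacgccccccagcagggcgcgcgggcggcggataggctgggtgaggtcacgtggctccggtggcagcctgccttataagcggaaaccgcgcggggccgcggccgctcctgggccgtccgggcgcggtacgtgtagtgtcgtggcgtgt
Mvd held 2 such boxes, whose first bases lay at −60 and −27 from the start. Sc4mol, listed by RefSeq as Msmo1, held 3, at −160, −96 and −55. Insig1 held 1, at −216.

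The libraries held 27440089 to 39251602 counts, and levels are given as CPM, counts scaled to the library size. For a gene without counts the upper limit per library, set at 3 counts, was 0.0764 to 0.109 CPM, which covers counting error only. Labels were checked against marker lists. All 5 interferon response markers rose with IFNγ (edgeR, adjusted p below the threshold of 0.05), and 4 of 8 osteoblast markers (Sp7, Ibsp, Alpl and Runx2) were higher in osteogenic than in untreated adipogenic libraries. Defining markers of mature fat cells were absent or nearly so: Adipoq had 14 counts in all 9 libraries, Plin1 had 4 and Retn had 0, and 3 of the 10 markers of that list (Fabp4, Lpl and Plin4) passed the filter. The label adipogenic is therefore read as a potential. Summed over the list, fat cell markers stood at 201.6 to 921.2 CPM in untreated, 97.8 to 411.5 CPM in treated and 15.8 to 47.1 CPM in osteogenic libraries. Within it, Lpl was lower in osteogenic than in untreated libraries (−5.54 ± 1.24, edgeR adjusted p = 0.0435), and Plin4 missed the threshold (−4.28 ± 1.05, 0.0555). Fabp4 overlapped, at 21.5, 24.1 and 233.8 CPM in untreated libraries 4, 5 and 6 and 33.9, 21 and 9.09 CPM in osteogenic ones. The stromal marker Thy1 had 2 counts in all libraries. Macrophage markers summed to at most 22.5 CPM and lymphoid and erythroid markers to at most 0.224 CPM in any library. Endothelial markers summed to 9.19 to 17.8 CPM in untreated, 22.2 to 54.4 CPM in treated and 1.67 to 2.63 CPM in osteogenic libraries, with Emcn at 0. Kdr made nearly all of this sum in adipogenic libraries and most of it in osteogenic ones (2.39, 1.35 and 1.44 CPM). Kdr was lower in osteogenic than in untreated libraries (−2.79 ± 0.44, edgeR adjusted p = 0.0146) and higher with IFNγ where libraries were paired (1.67 ± 0.17, 0.00663). The part of this list in the results below was not tested. Transcripts of the mitochondrial genome took 0.93% to 1.38% of counts in untreated, 0.66% to 0.706% in treated and 0.945% to 1.06% in osteogenic libraries.

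The 34 genes took 0.479%, 0.457% and 0.804% of all counts in untreated adipogenic libraries 4, 5 and 6, and 0.473%, 0.411% and 0.661% in the treated ones. In osteogenic libraries 4, 5 and 6 the share was 0.238%, 0.302% and 0.272%. Every osteogenic library thus lay below every adipogenic one, and number 6 was the highest of both adipogenic groups. Summed CPM of the 17 sterol enzymes was 889.1, 1136 and 2131 in untreated, 1145, 1117 and 1994 in treated and 607.2, 797.7 and 764.5 in osteogenic libraries. Summed CPM of the 8 fatty acid enzymes was 2914, 2360 and 4274 in untreated, 2585, 1940 and 3577 in treated and 1161, 1633 and 1593 in osteogenic libraries. In bulk RNA, fewer cells of a type and less RNA per cell cannot be told apart.

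**Figure D1:**
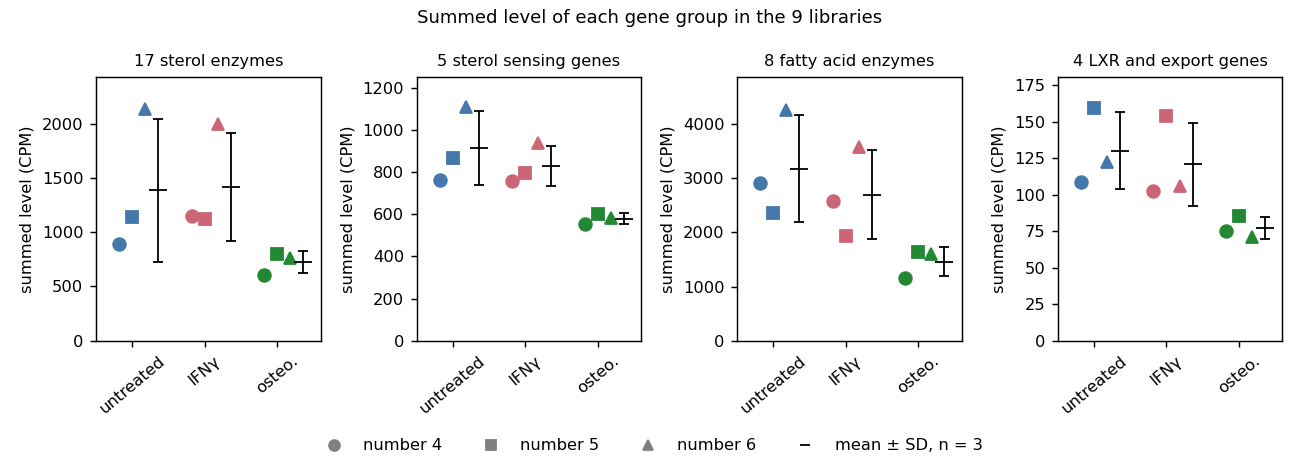
Summed level of each of the 4 gene groups (y axis, CPM) in every library, with untreated adipogenic, IFNγ-treated adipogenic and osteogenic libraries along the x axis; markers give the number in the label, and bars the mean ± SD of 3 libraries. The 17 sterol enzymes reach 2131 and 1994 CPM in the adipogenic libraries numbered 6 and stay at or below 797.7 CPM in the osteogenic libraries.

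Per length, Scd2 was the most abundant of the genes in every group, with 305.1 ± 74.9 RPKM (CPM per kilobase of exon, mean ± SD, n = 3) in untreated, 204.9 ± 75.7 in treated and 105.3 ± 31.2 in osteogenic libraries. Scd2 is a stearoyl-CoA desaturase, which puts the first double bond into saturated fatty acids. In untreated libraries Fads2 (91.2 ± 29.0 RPKM), Fdps (87.4 ± 47.1), Fads1 (74.4 ± 30.5), Srebf2 (64.6 ± 15.5) and Insig1 (59.6 ± 30.4) came next, and their spreads overlapped. At the low end stood Idi1 (1.77 ± 1.01 RPKM), Nr1h3 (2.01 ± 1.42), Acaca (3.41 ± 0.775), Dhcr7 (4.43 ± 1.40) and Abca1 (4.52 ± 2.61). Some of these levels are uncertain, because 16.7% of the 75-base windows in annotated transcripts of Idi1, 23.5% of those of Fdps and 26.8% of those of Acaca also occur in transcripts of other genes.

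**Figure D2:**
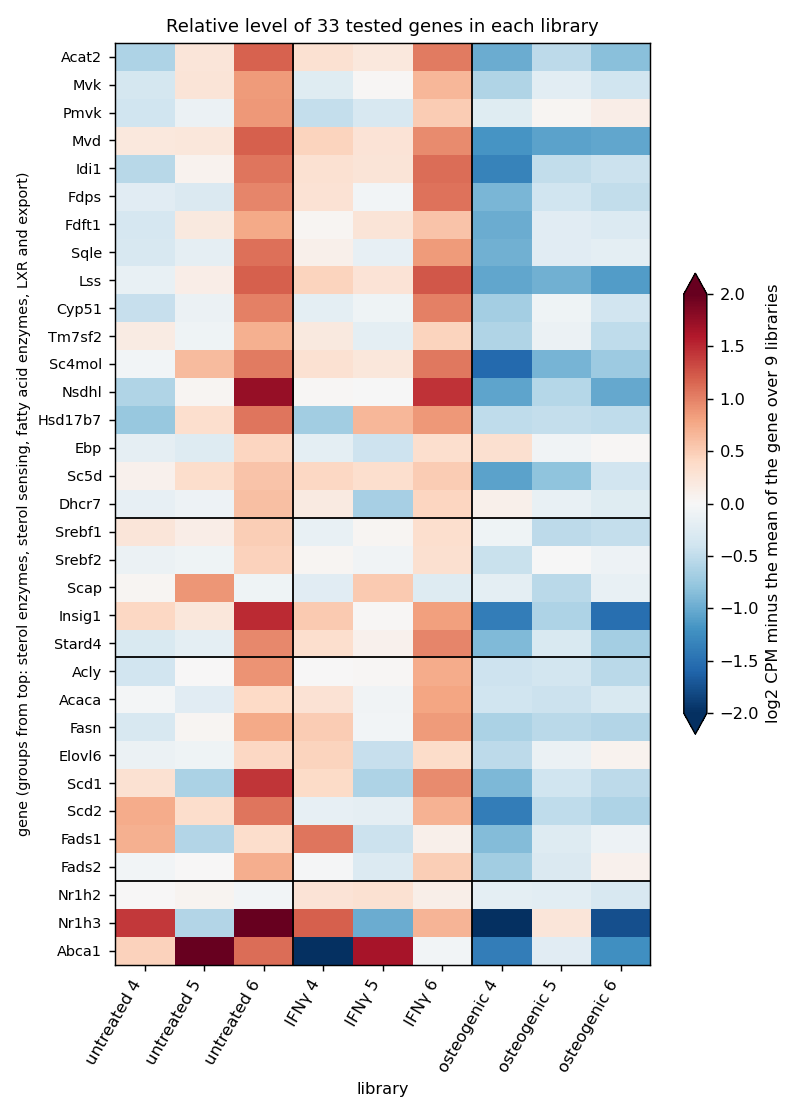
Level of the 33 tested genes (rows, in 4 groups parted by lines) in the 9 libraries (columns), as log2 CPM minus the mean of the gene over all 9; red is above and blue below that mean. The columns numbered 6 of both adipogenic groups are red for nearly all sterol enzymes, and the osteogenic columns are blue for Mvd, Lss, Sc4mol, Sc5d and Insig1.

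Several genes of sterol and fatty acid synthesis were lower in osteogenic than in untreated adipogenic progenitors. Mvd, Sc4mol and Sc5d of sterol synthesis, the sterol sensor Insig1 and the desaturase Scd2 were 2.10-fold to 3.84-fold lower, and no gene of the 33 was called higher. The 5 genes called lower make 15.2% of the 33, against 3.19% of all genes tested (edgeR quasi-likelihood test, adjusted p under 0.05). The log2 fold change was negative for 32 of 33 genes (97.0%), against 51.4% of all genes. Its median was −0.77 over the 33, against −0.02 over all genes tested. At an unadjusted p under 0.05, 16 of the 33 were lower (48.5%, against 12.8% of all genes) and 0 were higher. All 3 osteogenic libraries lay below all 3 untreated ones for 14 of the 33 (42.4%, against 15.9%).

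Among the sterol enzymes, 3 of 17 were called lower and 16 of 17 had a negative log2 fold change, with a median of −0.87. Mvd, which decarboxylates mevalonate pyrophosphate, stood at 55.1, 55.3 and 108.1 CPM in untreated libraries 4, 5 and 6, and at 20.9, 22.7 and 23.1 CPM in osteogenic ones. The groups did not overlap, and the highest osteogenic library was below the lowest untreated one. The log2 fold change of Mvd was −1.71 ± 0.30 (SE, edgeR adjusted p = 0.0204). Sc4mol, a methyl oxidase that acts after lanosterol in the pathway, stood at 108.8, 175.7 and 233.3 CPM in untreated and at 38.5, 59.6 and 68.7 CPM in osteogenic libraries. Again no library of one group reached the other, and the log2 fold change was −1.63 ± 0.35 (edgeR adjusted p = 0.0402). Sc5d, the desaturase of a late step, stood at 69.2, 83.4 and 97.4 CPM in untreated and at 31.3, 37.6 and 50.2 CPM in osteogenic libraries. It fell by 1.07 ± 0.20 on the log2 scale (edgeR adjusted p = 0.0237), with no overlap.

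The next sterol enzyme in order of evidence was Lss, which folds squalene epoxide into lanosterol, with 83, 100.9 and 211.8 CPM in untreated and 45, 47.4 and 42.6 CPM in osteogenic libraries. Its groups did not overlap, but its log2 fold change of −1.55 ± 0.38 missed the threshold (edgeR adjusted p = 0.0571). Nsdhl, which acts with Sc4mol, averaged 57.8 ± 50.3 CPM (SD, n = 3) in untreated and 18.8 ± 3.74 CPM in osteogenic libraries, a log2 fold change of −1.62 ± 0.64 (edgeR adjusted p = 0.179). Its untreated libraries ranged from 22.5 to 115.4 CPM and the lowest overlapped the osteogenic ones. Acat2, the thiolase of the first step, had a log2 fold change of −1.22 ± 0.43 (edgeR adjusted p = 0.141). In annotated transcripts 33.9% of its 75-base windows are shared with Acat3, so its reads are uncertain.

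The log2 fold changes of Mvk, Idi1, Fdps, Fdft1, Sqle, Cyp51, Tm7sf2 and Hsd17b7 lay between −1.05 (Idi1) and −0.65 (Cyp51). These enzymes cover the steps from mevalonate to farnesyl pyrophosphate, squalene and the sterol ring, and none passed the adjusted threshold. Pmvk, the kinase before Mvd, and Dhcr7, the last reductase, showed log2 fold changes of −0.24 ± 0.37 and −0.25 ± 0.31. Ebp, the sterol isomerase, alone had a positive one, 0.07 ± 0.25, with 54.5 ± 15.2 CPM in untreated and 57.1 ± 8.29 CPM in osteogenic libraries. The sign of these last 3 genes was not stable: without a single library it turned for each of them.

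Of the 5 sterol sensing genes, Insig1 was called lower and all 5 had a negative log2 fold change. Insig1, itself a target of SREBP, stood at 118.7, 104.7 and 250.3 CPM in untreated libraries and at 34.1, 57.9 and 31.5 CPM in osteogenic ones. Its groups did not overlap, and its log2 fold change was −1.94 ± 0.40 (edgeR adjusted p = 0.0351). Srebf2, which encodes the SREBP of sterol synthesis, stood at 273.5, 282.1 and 411.3 CPM in untreated and at 217.8, 297.5 and 278.1 CPM in osteogenic libraries. These values overlapped, and the log2 fold change was −0.29 ± 0.21 (edgeR adjusted p = 0.442). Srebf1, the SREBP gene more tied to fatty acid synthesis, stood at 185.5, 171.8 and 219.6 CPM in untreated and at 148.2, 109.1 and 113 CPM in osteogenic libraries. The groups of Srebf1 did not overlap, and the log2 fold change of −0.64 ± 0.18 missed the threshold (edgeR adjusted p = 0.0822). Scap averaged 185.1 ± 72.6 CPM in untreated and 119.4 ± 16.7 CPM in osteogenic libraries. Stard4, a carrier of cholesterol between membranes, averaged 57.8 ± 30.6 and 31.4 ± 6.49 CPM (SD, n = 3), and neither Scap nor Stard4 was called.

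All 8 fatty acid enzymes had a negative log2 fold change, with a median of −0.67, and 1 was called lower. Scd2 stood at 1648, 1264 and 2079 CPM in untreated and at 379.8, 696.4 and 645.9 CPM in osteogenic libraries. No osteogenic library reached the lowest untreated one, and the log2 fold change was −1.54 ± 0.34 (edgeR adjusted p = 0.0422). Its close relative Scd1 stood at 232.5, 120.6 and 504.4 CPM in untreated and at 100.4, 142.8 and 130.5 CPM in osteogenic libraries, with overlap and a log2 fold change of −1.20 ± 0.54 (edgeR adjusted p = 0.226). Of the 75-base windows of Scd2 transcripts, 1.45% are shared with Scd1. Fasn, the fatty acid synthase, stood at 314.2, 401.3 and 664.8 CPM in untreated and at 253.3, 268.6 and 260 CPM in osteogenic libraries. Its groups did not overlap, and its log2 fold change was −0.82 ± 0.31 (edgeR adjusted p = 0.159). Acly, which makes acetyl-CoA from citrate, Acaca, which makes malonyl-CoA, the elongase Elovl6 and the desaturases Fads1 and Fads2 had log2 fold changes from −0.72 (Acly) to −0.26 (Elovl6), none of them called.

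None of the 3 tested genes of LXR and sterol export was called by edgeR, and 2 of them had wide errors. Nr1h2 (LXRβ) averaged 78.4 ± 3.29 CPM in untreated and 66.1 ± 2.93 CPM in osteogenic libraries (SD, n = 3), a log2 fold change of −0.25 ± 0.10 (edgeR adjusted p = 0.192) without overlap. Nr1h3 (LXRα) stood at 5.38, 1.34 and 8.48 CPM in untreated and at 0.423, 2.37 and 0.593 CPM in osteogenic libraries. Osteogenic library 5 lay above untreated library 5, so the groups overlapped, and the log2 fold change was −2.18 ± 0.91 (edgeR adjusted p = 0.197). Abca1, which exports cholesterol, stood at 24.7, 77 and 39 CPM in untreated and at 6.89, 15.3 and 7.65 CPM in osteogenic libraries. The groups of Abca1 did not overlap, and the log2 fold change was −2.24 ± 0.89 (edgeR adjusted p = 0.181). DESeq2 called Abca1 lower (−2.25 ± 0.80, adjusted p = 0.0383), while the other alternatives to edgeR's fit, limma-voom among them (0.208), did not. Lss, Srebf1 and Acat2, not called by edgeR, were also called lower by DESeq2 (adjusted p = 0.0017, 0.0205 and 0.0437).

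**Figure D3:**
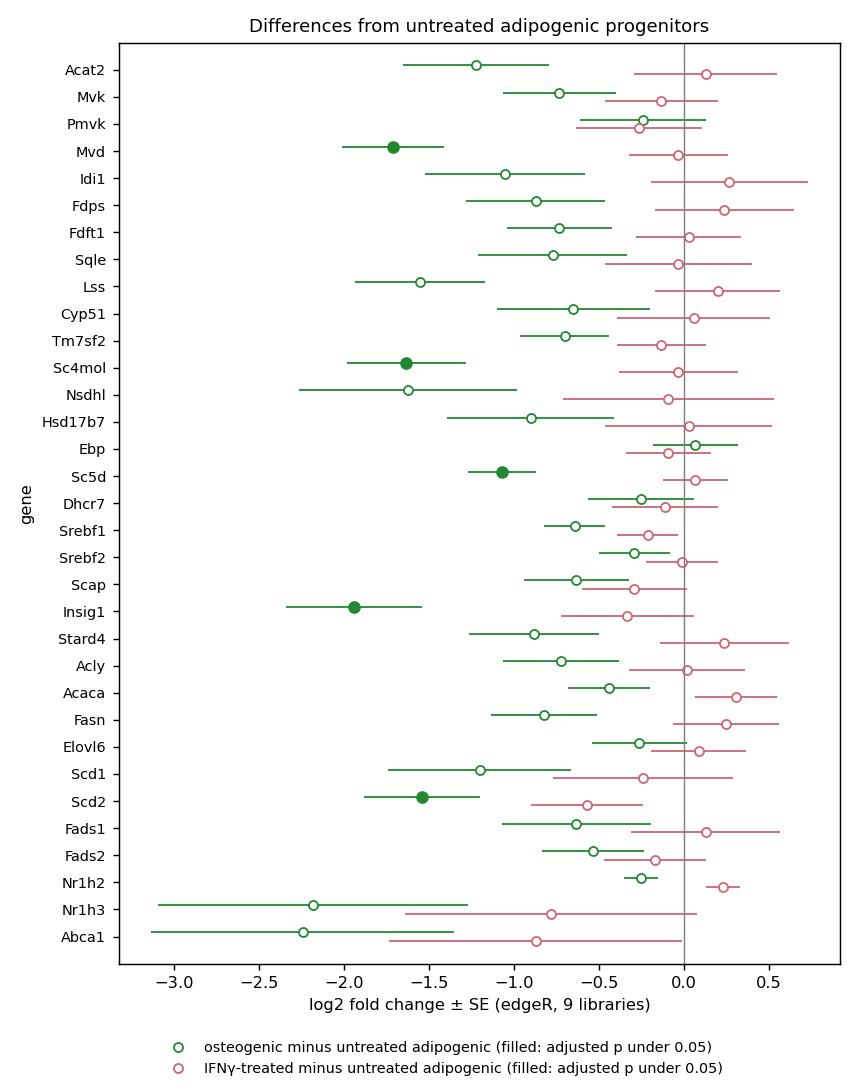
Log2 fold change ± SE (x axis, edgeR fit of all 9 libraries) of the 33 tested genes (y axis) in osteogenic (green) and in IFNγ-treated (red) against untreated adipogenic libraries; both comparisons share the untreated libraries, and filled points have an adjusted p under 0.05. Green points lie left of 0 for 32 of 33 genes and 5 are filled, whereas red points lie on both sides and none is filled.

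The 5 calls were sensitive to single libraries. Mvd was lost without any 1 of the 3 osteogenic libraries (highest adjusted p 0.0831) and kept without any 1 untreated library. Sc5d was lost without untreated 5 or 6 or osteogenic 4 or 5 (highest 0.0892), and Insig1 without untreated 4 or 6 or any osteogenic library (highest 0.125). Sc4mol was lost without untreated 5 or 6 or any osteogenic library (highest 0.130), and Scd2 without any 1 of the 6 libraries (0.0539 to 0.124). Without untreated library 6, 1 gene (Mvd) was called and 30 of 33 log2 fold changes were negative, with a median of −0.44.

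With IFNγ, Scd2 was the 1 gene of the group that was called, lower in treated libraries and only in a fit that pairs libraries by number. In the comparison without pairing, 0 of 33 genes were called, against 2.26% of all genes tested (edgeR). Of the 33, 0 had an unadjusted p under 0.05, against 2159 of all 15098 genes tested. DESeq2 and limma-voom also called 0, with 1 and 0 genes at an unadjusted p under 0.05. Their counts over all genes are not given here. The log2 fold change was negative for 18 and positive for 15 genes, from −0.87 (Abca1) to 0.31 (Acaca), with a median of −0.03 against −0.02 over all genes. The numbers in the labels paired treated with untreated libraries, since their deviations from the group means correlated at 0.769 to 0.779 for equal numbers. With the number as a block over the 6 libraries, 1 of 33 genes was called lower (3.03%, against 8.02% of all genes in that fit) and 0 higher (against 8.61%). At an unadjusted p under 0.05, 7 of the 33 passed in that fit. Fdps, Acaca and Nr1h2 were the 3 higher ones (9.09%, against 15.8% of all genes), and Scap, Scd2, Nr1h3 and Abca1 the 4 lower ones (12.1%, against 18.2%). Scap, at −0.29 ± 0.09, and Acaca, at 0.28 ± 0.09 on the log2 scale, had edgeR adjusted p = 0.0831 and 0.0951 with the block. With the same block in a fit of all 9 libraries 0 genes were called, and 4 had an unadjusted p under 0.05. The counts over all genes in that fit are not given here.

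Scd2 stood at 883.9, 873.6 and 1594 CPM in treated libraries 4, 5 and 6, against 1648, 1264 and 2079 CPM in the untreated ones of the same numbers. The treated library was the lower in all 3 pairs, by −0.90, −0.53 and −0.38 on the log2 scale, although the groups overlapped. The log2 fold change was −0.62 ± 0.15 with the block (edgeR adjusted p = 0.0465) and −0.57 ± 0.33 without it (adjusted p = 0.512). The block's call did not hold without any 1 pair (adjusted p = 0.114 to 0.124) nor in the fit of 9 libraries (0.163). The log2 fold change stayed negative there, at −0.46, −0.66 and −0.72 without pair 4, 5 and 6, and at −0.60 in the fit of 9 libraries. For Scd1 the treated libraries stood at 243.3, 121.9 and 360.4 CPM, with a log2 fold change of −0.15 ± 0.13 with the block (edgeR adjusted p = 0.481). The difference between Scd1 and Scd2 was not tested.

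Among sterol enzymes the pairs differed in direction. In pair 4, 15 of 17 sterol enzymes were higher in the treated library, with a median log2 ratio of 0.34. In pair 5 it was 8 of 17, with a median of −0.01, and in pair 6 it was 4 of 17, with a median of −0.17. Over all genes with counts in both libraries, 7481 of 14942 were higher in treated library 4, 6799 of 15010 in treated library 5 and 7450 of 15014 in treated library 6. Treated libraries were above untreated ones in all 3 pairs for 6 of the 33 genes (18.2%, against 26.9% of all genes): Idi1, Fdps, Lss, Stard4, Acaca and Nr1h2. They were below in all 3 pairs for 7 (21.2%, against 29.7%): Pmvk, Ebp, Srebf1, Scap, Scd2, Nr1h3 and Abca1. Both shares were thus no larger than over all genes.

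**Figure D4:**
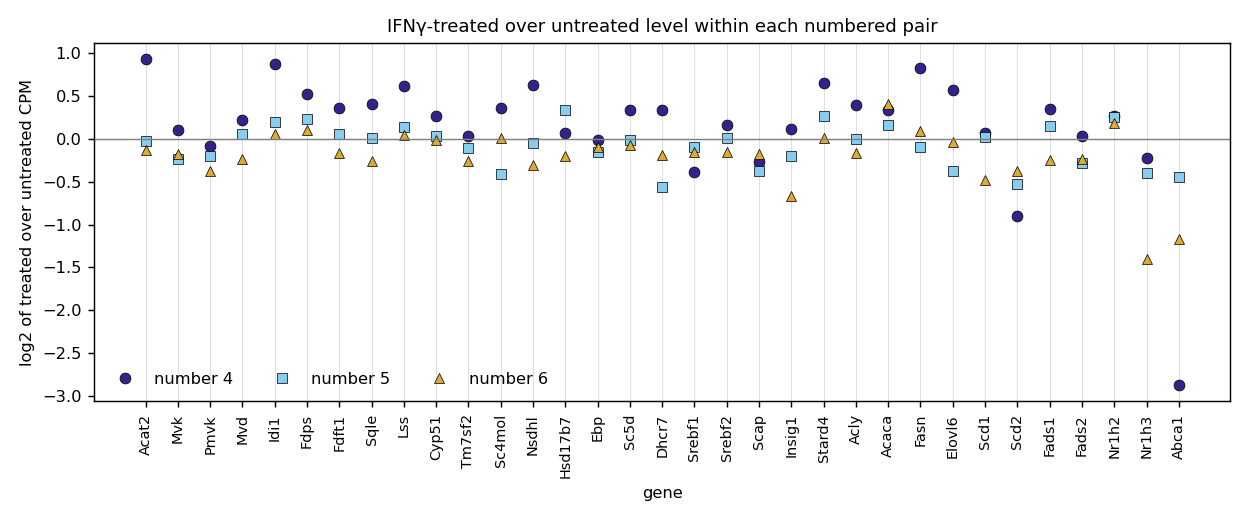
Log2 ratio of treated over untreated CPM (y axis) within each pair of equal number, for the 33 tested genes (x axis); circles are pair 4, squares pair 5 and triangles pair 6. Scd2 and Abca1 lie below 0 in every pair, Abca1 with −2.87, −0.45 and −1.17, and the sterol enzymes are mostly above 0 in pair 4 and mostly below it in pair 6.

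Regulators of sterol synthesis showed small differences with IFNγ. Srebf2 stood at 306.3, 284.9 and 370.1 CPM in treated libraries, within the untreated range. Its log2 fold change was −0.01 ± 0.21 without the block (edgeR adjusted p = 0.993) and −0.01 ± 0.10 with it (0.975). Srebf1 stood at 141.4, 161.5 and 197.5 CPM, lower than its untreated partner in each pair, with −0.23 ± 0.10 with the block (edgeR adjusted p = 0.189). Insig1 stood at 128.4, 91 and 157.6 CPM, higher than untreated in pair 4 and lower in pairs 5 and 6. Its log2 fold change was −0.33 ± 0.39 without the block (edgeR adjusted p = 0.786) and −0.27 ± 0.15 with it (0.288). Fasn stood at 555.4, 377.1 and 706.4 CPM, higher in pairs 4 and 6 and lower in pair 5. Its log2 fold change was 0.25 ± 0.31 without the block (edgeR adjusted p = 0.797) and 0.26 ± 0.19 with it (0.395).

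LXR genes and Abca1 gave the widest range with IFNγ. Abca1 stood at 3.37, 56.2 and 17.3 CPM in treated libraries, below its partner in each pair. The log2 fold change was −0.87 ± 0.86 without the block (edgeR adjusted p = 0.731) and −1.42 ± 0.47 with it (0.104), so it was not called. Nr1h3 stood at 4.61, 1.01 and 3.21 CPM in treated libraries, also below its partner in each pair, with −0.71 ± 0.28 with the block (edgeR adjusted p = 0.143). Nr1h2 stood at 94.6, 96.7 and 85.1 CPM, above all untreated libraries (78.8, 81.5 and 74.9 CPM). Its log2 fold change of 0.23 ± 0.10 was not called (edgeR adjusted p = 0.350, and 0.115 with the block). Other measures moved with the treatment: the 10 markers of dividing cells all had positive log2 fold changes with IFNγ, 10 of 10 being called with the block and 0 without it. Their summed level was 203.4 to 507.2 CPM in untreated and 432.4 to 1077 CPM in treated libraries. Their part, and that of the lower mitochondrial share, in the values of these genes was not tested.

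Treated and osteogenic progenitors were also compared directly. The treated libraries are those of the comparison with IFNγ, and the osteogenic ones those compared with untreated libraries. Treated libraries also pair with untreated ones by number, so calls shared between these comparisons are not independent. Of the 33 genes 7 were called lower in osteogenic libraries (21.2%, against 9.2% of all genes, edgeR), and 0 higher, with 31 negative log2 fold changes and a median of −0.76. Mvd (−1.68 ± 0.30, adjusted p = 0.00802) and Sc5d (−1.14 ± 0.20, 0.00681) were the 2 calls that held without any 1 library. Lss, Sc4mol and Insig1 were lower by log2 fold changes of −1.75 ± 0.39, −1.60 ± 0.35 and −1.61 ± 0.40. Nr1h2 was 1.39-fold lower (−0.48 ± 0.10, edgeR adjusted p = 0.0168). Fasn was 2.10-fold lower (−1.07 ± 0.31, edgeR adjusted p = 0.0498), and it missed the threshold with another scaling of the libraries (0.0502). For 10 of the 33 genes every osteogenic library lay below all 6 adipogenic ones (30.3%, against 10.6% of all genes): Mvd, Fdps, Lss, Sc4mol, Sc5d, Insig1, Acaca, Fasn, Scd2 and Nr1h2.

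Adipogenic number 6 stood apart from numbers 4 and 5. Untreated library 6 was the highest of its group for 29 of 33 genes (87.9%, against 32.0% of all genes), and treated library 6 for 27 (81.8%, against 31.1%). For 27 genes it was the highest in both (81.8%, against 20.8%). The osteogenic library numbered 6, whose number does not pair it with the adipogenic ones, was the highest of its group for 11 of 33 (33.3%, against 35.5%). As the ratio of library 6 to the mean of libraries 4 and 5, the 17 sterol enzymes had a median of 2.17 in untreated libraries, 1.72 in treated and 1.0 in osteogenic ones. Over all genes tested these medians were 0.974, 0.978 and 0.999. In untreated libraries the ratio ran from 1.28 for Sc5d to 3.98 for Nsdhl, at 22.5, 35.4 and 115.4 CPM. Fatty acid enzymes had a median ratio of 1.55 in untreated and 1.56 in treated libraries. The 4 genes that did not peak in untreated library 6 were Scap, Fads1, Nr1h2 and Abca1. With 1 library of that number in each group, no test of its difference was made.

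Several marker lists were also highest in untreated library 6, and not only that of fat cells. Fat cell markers summed to 201.6, 251.6 and 921.2 CPM in untreated libraries 4, 5 and 6 and to 97.8, 222.3 and 411.5 CPM in treated ones. Within that list, treated Plin4 was highest in number 5 (186.3 CPM, against 129.4 CPM in number 6). Markers of dividing cells summed to 283, 203.4 and 507.2 CPM and to 966.1, 432.4 and 1077 CPM. Osteoblast markers summed to 280, 1097 and 1426 CPM and to 305, 474.5 and 397.6 CPM, and macrophage markers to 7.35, 9.05 and 22.5 CPM and to 7.77, 7.24 and 13.7 CPM. Most of the osteoblast sum was Spp1 (211.6, 999.7 and 1354 CPM in untreated libraries). Most of the macrophage sum was Cd68 (4.98, 7.28 and 18.6 CPM). Alpl and Dmp1 of the osteoblast list were also highest in untreated library 6. Runx2, Bglap, Bglap2 and Ibsp were lowest there, and Sp7 was highest in untreated library 5. Stromal markers were highest in untreated library 5 (2736 CPM) and endothelial ones in untreated library 4 (17.8 CPM). In osteogenic libraries 4, 5 and 6 fat cell markers summed to 45.1, 47.1 and 15.8 CPM and dividing cell markers to 367.5, 442 and 565.1 CPM. The part of any of these lists in the levels of sterol and fatty acid genes was not tested.

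Further genes of lipid metabolism were read from the same fits, as a list of 49 names, of which 48 were in the table and 46 were tested. With IFNγ, Soat1 was called higher without pairing (1 of 46, 2.17%, against 2.01% of all genes), and 0 were called lower (against 37 of 15098 genes). Soat1, which esterifies cholesterol for storage, stood at 135.8, 118.6 and 101.6 CPM in untreated libraries 4, 5 and 6 and at 316.5, 267.7 and 232 CPM in treated ones. No treated library came near the untreated range, and the log2 fold change was 1.20 ± 0.17 (edgeR adjusted p = 0.00811), or 1.18 ± 0.08 with the block (0.0027). With the block 5 of the 46 genes were higher (10.9%, against 8.61% of all genes in that fit) and 5 lower (10.9%, against 8.02%). The higher ones were Soat1, Acacb and the acyl-CoA synthetases Acsl1, Acsl4 and Acsl5, which activate fatty acids. The lower ones included another acyl-CoA synthetase, Acsl3 (−0.65 ± 0.09, edgeR adjusted p = 0.0118), Acss2, which makes acetyl-CoA from acetate, the sterol hydroxylase Cyp27a1, the receptor Lrp1 and the LXR partner Rxra. Acsl5 went from 105.5 ± 30.0 CPM to 209.2 ± 60.1 CPM (SD, n = 3), with 0.98 ± 0.10 (edgeR adjusted p = 0.0066).

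Between osteogenic and untreated libraries 0 of these 46 genes were called in either direction. Of all 15098 genes tested, 299 were called higher and 481 lower there. For 35 of the 46 the log2 fold change was negative (76.1%, against 51.4% of all genes). Against treated libraries 8 of the 46 genes were lower in osteogenic ones (17.4%, against 9.2% of all genes) and 0 higher (against 1136 of 15098 genes). They included Soat1, Acsl5, Acsl4, Hsd17b12, Mbtps2, Stard3 and Lipa, with log2 fold changes from −1.71 (Acsl5) to −0.60 (Mbtps2).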

How the data were processed

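The deposited values are raw read counts per Ensembl gene, made by the authors on mouse build mm9, with each library in its own column. CASAVA 1.8.0 and bedtools 2.11 are named in the submitters' processing notes. Which aligner and counter were used, and whether counting used strand, is not given in the sources used here, so that reads of overlapping or antisense genes and of near-identical copies are uncertain. Libraries came from a directional kit, per the labels. The deposited exon length per gene, of the unit other, was used for RPKM. Group and number were read from the titles.

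The fit used edgeR 4.0.16 in R 4.3.3: filterByExpr by group, TMM scaling, a robust quasi-likelihood fit of all 24186 genes after filtering (15098 kept) over 9 libraries with a term for the group, F tests (two-sided), with p adjusted by Benjamini-Hochberg over all genes tested, at 0.05. The common biological coefficient of variation was 0.378. Standard errors were computed as the absolute log2 fold change divided by √F. CPM used the TMM-scaled library sizes. Groups of 3 against 3 cannot reach a two-sided exact permutation p below 0.1, so none was used. Alternatives were RLE size factors, no filter beyond 1 count, DESeq2 1.42.0, limma-voom (limma 3.58.1), the 6 libraries compared alone, each library left out, and the number as a block. The scripts were tested on simulated data.

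Numbers were checked as a pairing: each library's deviation from its group mean was correlated across genes between groups. Treated and untreated libraries of equal number gave r = 0.778, 0.769 and 0.779, and unequal numbers gave −0.461 to −0.279. For osteogenic and untreated libraries of equal number the values were −0.0269, −0.0546 and −0.0541, and for osteogenic and treated ones −0.0178, −0.00518 and 0.0552, so those numbers do not pair them.

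The members, gene lists, tests and alternatives were chosen with earlier results of these data known. Members were named throughout; per-library values were given for members called against untreated libraries, with or without the block, and for Srebf1, Srebf2, Insig1, Nr1h3, Abca1 and Fasn, and for a few more chosen after their values were seen. Other lipid genes were named where called, at most 8 per comparison. Results for some genes of that list are not reported here. Promoters were to be printed for genes holding TCACNCCAC; since none did, promoters were printed for 3 genes called lower whose table start matched a GENCODE transcript. The promoter table is on GRCm38.p6 and was used for sequence only. Transcripts of GENCODE M21 gave the shares of common 75-base windows.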

Additional observations from a re-analysis of the deposited data

How the results depend on the processing

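Counts of called genes moved with the test, the replicate block and single libraries. For osteogenic against untreated libraries the 5 genes called lower became 9 with DESeq2, 2 with the 6 libraries alone and 0 with the replicate block, where 14 had an unadjusted p under 0.05, and 0 to 3 without single replicates. For osteogenic against treated libraries the 7 became 13 with DESeq2, 9 with the 6 libraries alone, 4 with the replicate block, and 2 to 7 without single replicates. How many of all genes these alternatives called in the osteogenic comparisons is not given here. The changes in these counts may therefore not be particular to the 33 genes. With IFNγ the 0 genes called lower became 1 with the replicate block, and the 18 negative log2 fold changes became 5 to 28 without single replicates, 5 without untreated 6 and 28 without treated 6. The median over the 33 genes was then 0.25 and −0.26. Leaving out a replicate leaves 2 libraries in its group, and none gave a gene called higher.

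Log2 fold changes that turned sign were small in the edgeR fit without a block, but some reached larger values on both sides without single replicates. For IFNγ-treated against untreated libraries, Nsdhl (−0.09) then ran from −0.74 to 0.9, Cyp51 (0.06) from −0.42 to 0.63 and Scd1 (−0.24) from −0.65 to 0.45. With IFNγ, Srebf2 (−0.01) turned to 0.01 with limma-voom and with the replicate block over 9 libraries, and to 0.09 with the replicate block without pair 6, an alternative chosen after seeing the data. Without single replicates it ran from −0.12 to 0.21. Insig1 (−0.33) ran from −0.55 to 0.17, and Fasn (0.25) turned to −0.0041 with the block without pair 4. Between osteogenic and untreated libraries, single replicates left Pmvk between −0.47 and 0.24, Dhcr7 between −0.39 and 0.04 and Ebp between −0.06 and 0.32. The causes were not tested. Of the other single-gene values, those of osteogenic against untreated libraries kept direction and side of the threshold in 356, lost the call in 31 and gained it in 4. Only the 5 genes called lower had a call to lose, so all 31 losses fell on them. Among the 33 genes, the replicate block changed no call with IFNγ other than that of Scd2. Depth limits Abcg1, at 0 to 14 counts per library, most.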
